A study of Mus musculus with 6 samples.

Results

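Neutrophil granule and maturation genes were followed in RNA from femoral bone, as the rows of the deposited gene tables whose symbol is one of 36 listed neutrophil genes; all 36 were found, out of 55484 genes, and each had a single row. The genes were placed in 4 stages as a rough grouping: 7 primary granule genes, 13 secondary granule genes, 9 tertiary granule genes and 7 genes of the mature neutrophil. Not all encode contents of the granule that names their stage. Cebpe encodes a transcription factor, Ncf1 and Ncf4 cytosolic proteins, and Padi4 an enzyme that acts on histones. The study compared male wild-type C57BL/6 mice on normal chow, each housed alone: 3 with a running wheel in the cage (ND/WCR) and 3 in a cage with none (ND/SED). The mice entered at 6 weeks of age and were 12 weeks old when the femurs were taken after 6 weeks. Whether marrow was flushed from the bone is not given in the labels.

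Neutrophils are made in the marrow and fill their granules in a fixed order. Promyelocytes make the primary (azurophil) granules with myeloperoxidase and serine proteases, myelocytes and metamyelocytes make the secondary (specific) granules with lactoferrin and cathelicidin, and band cells make the tertiary (gelatinase) granules. Surface receptors for chemoattractants mark the later cells, which can stay in the marrow as a reserve before they are released to the blood.

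For every gene the tables hold a single FPKM in either group, with the authors' interval around it, and no column of single mice. FPKM divides fragments by transcript length and by sequencing depth, so levels can be compared between genes. The spread between mice is therefore unknown, and every q and p below is that of the authors' deposited table. The lowest FPKM values fall in steps of 1 fragment, which puts the effective depth at 13800000 to 17300000 fragments for the running libraries and 14300000 to 16400000 for the sedentary libraries, provided that the pooled FPKM averages 3 libraries of equal weight. Log2 folds are wheel running over sedentary, computed on the log2(FPKM + 0.1) scale. Markers of the labelled tissue were present: all 10 osteocyte and osteoblast genes listed were expressed, with a summed 6006 FPKM in running and 5599 FPKM in sedentary mice. The 36 neutrophil genes summed to 51455 FPKM in running and 60135 FPKM in sedentary mice, so the femurs also carried RNA of neutrophils.

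Promoters of 5 of these genes are shown as examples of sequence from each stage. They are the most expressed gene of each stage, and the gene with the lowest fold, among those with a single RefSeq promoter that reaches at most 30 bases into the GENCODE gene. Each line gives the 250 bases before the RefSeq start on GRCm38.p6, 5′ to 3′ on the strand of the gene. Capitals mark matches on either strand to 4 short motifs: TTGCNNAA of the C/EBP factors, GAGGAA of the ETS factors that include PU.1, TGTGGT of the RUNX factors and the TATA box TATAAA. C/EBP, PU.1 and RUNX factors are known regulators of granulocyte genes.
Ctsg: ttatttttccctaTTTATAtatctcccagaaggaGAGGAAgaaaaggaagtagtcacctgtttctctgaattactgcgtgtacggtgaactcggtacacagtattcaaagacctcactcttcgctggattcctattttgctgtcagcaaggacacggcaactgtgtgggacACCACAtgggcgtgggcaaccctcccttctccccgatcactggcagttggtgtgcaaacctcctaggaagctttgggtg
Ltf: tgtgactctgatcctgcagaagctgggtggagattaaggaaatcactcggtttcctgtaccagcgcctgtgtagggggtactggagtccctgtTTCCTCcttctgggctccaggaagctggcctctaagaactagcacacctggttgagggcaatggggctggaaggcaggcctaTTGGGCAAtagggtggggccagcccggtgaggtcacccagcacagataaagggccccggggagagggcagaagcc
Mmp8: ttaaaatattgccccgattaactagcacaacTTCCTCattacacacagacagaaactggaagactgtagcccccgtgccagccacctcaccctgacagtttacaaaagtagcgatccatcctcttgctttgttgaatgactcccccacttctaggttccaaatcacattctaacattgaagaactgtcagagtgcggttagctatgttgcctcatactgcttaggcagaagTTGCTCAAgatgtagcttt
S100a9: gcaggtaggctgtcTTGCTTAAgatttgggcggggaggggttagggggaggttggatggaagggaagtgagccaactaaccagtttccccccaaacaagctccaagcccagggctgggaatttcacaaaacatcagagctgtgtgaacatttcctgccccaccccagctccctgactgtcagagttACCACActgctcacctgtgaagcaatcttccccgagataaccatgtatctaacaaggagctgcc
Stfa2l1: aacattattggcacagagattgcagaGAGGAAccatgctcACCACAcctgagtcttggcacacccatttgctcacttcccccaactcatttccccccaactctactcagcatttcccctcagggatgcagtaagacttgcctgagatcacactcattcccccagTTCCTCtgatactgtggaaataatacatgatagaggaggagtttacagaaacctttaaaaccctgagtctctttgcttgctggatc
These windows are chr14:56102575-56102824 (minus strand) for Ctsg, chr9:111019042-111019291 (plus strand) for Ltf, chr9:7558179-7558428 (plus strand) for Mmp8, chr3:90695722-90695971 (minus strand) for S100a9 and chr16:36156561-36156810 (plus strand) for Stfa2l1. The C/EBP motif starts 75 bases before the start of Ltf, 19 bases before that of Mmp8 and 236 bases before that of S100a9. No match to TTGCNNAA lies in the Ctsg or Stfa2l1 window. No marked matches of different motifs overlap in these 5 windows.

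RefSeq promoters were at hand for 30 of the 36 genes, in 32 windows. TTGCNNAA was found in 10 of the 32 windows (31.2%), against 9.56% of the 32851 windows of all genes, and GAGGAA in 17 windows (53.1%), against 23.3% of all. TATAAA was found in 10 windows (31.2%), against 12.4% of all, and TGTGGT in 5 (15.6%), against 14% of all. These are counts of letters in a window and say nothing of binding.

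No neutrophil gene passed the authors' test, yet almost every one had the lower value in the running mice. Of the 36 genes, all tested, 0 had a q under 0.05 in the authors' deposited table; among the 15508 genes tested there 0.941% did, and 0.497% with the lower value in running mice. In 28 of the 36 genes q was above 0.9. The lowest q of the set was 0.145. At an unadjusted p under 0.05 there were 8 genes, 22.2% of the set, all with the lower value in running mice, where 2.22% of all tested genes and 2.17% of those with at least 10 FPKM in both groups were. A log2 fold below 0 was seen in 35 of the 36 (97.2%), against 51.8% of all tested genes. The share below 0 grows with level: it was 58.4% among the 7650 tested genes with at least 10 FPKM in both groups, which all 36 have, and 68% among the 788 genes with at least 100 FPKM. The median log2 fold was -0.18 over the neutrophil genes and -0.02 over the genes at 10 FPKM or more. Of those genes, the lower quartile was -0.10 and the 5th percentile -0.24; 32 of the neutrophil genes lay below the first of these values and 10 below the second. Since the genes were listed for 1 cell lineage and measured in the same pooled libraries, they are not separate observations. Other cells of the femur may also express some of them, which was not examined.

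**Figure D1:**
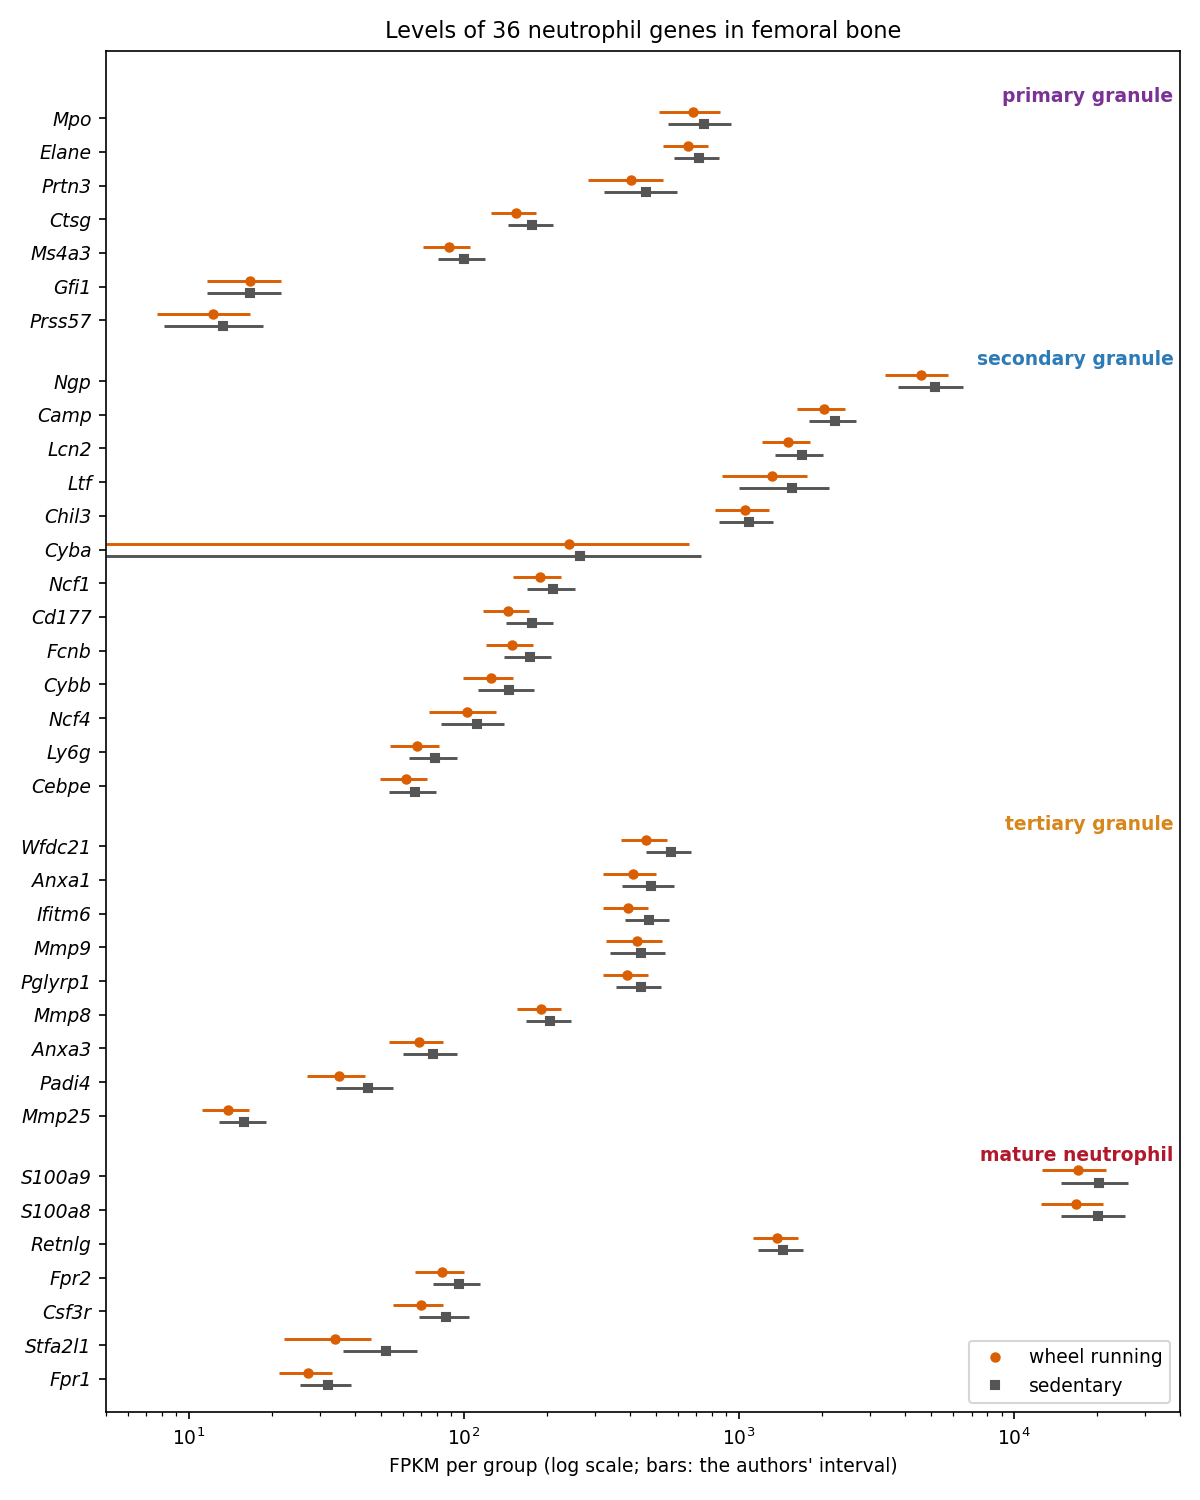
FPKM of each of the 36 genes in wheel running (circles) and sedentary mice (squares), with the authors' interval as a bar, on a log axis and ordered by level within each stage. The running value lies left of the sedentary value for 35 genes, and all 36 pairs of bars overlap; the bars of Cyba go down to 0, beyond the axis.

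For all 36 genes the authors' intervals overlapped between the groups, while they were apart for 0.574% of all tested genes, 0.4% with the lower value in running mice. They reached a median of 20.8% of the value to either side in running and 21.0% in sedentary mice. For 30 genes each group's value lay inside the other group's interval. The 6 exceptions were Cd177, Padi4, Ifitm6, Wfdc21, Csf3r and Stfa2l1, and for Wfdc21 and Stfa2l1 neither value lay inside the other interval. The share of such exceptions among all tested genes was not computed, so these counts do not set the neutrophil genes apart.

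In primary granule genes the values were lower in running mice by 8.28% to 12.8%, apart from Gfi1. Mpo, which encodes the peroxidase that makes hypochlorous acid, stood at 683 (510 to 855) FPKM in running and 744 (552 to 937) FPKM in sedentary mice, a log2 fold of -0.12. Exons of Gm11505 on the other strand cover 15.0% of its exon bases. Elane, neutrophil elastase, was at 650 (530 to 770) FPKM in running and 715 (582 to 847) FPKM in sedentary mice, with an unadjusted p of 0.207 in the authors' deposited table. Prtn3, proteinase 3, stood at 405 (282 to 528) FPKM in running and 460 (324 to 597) FPKM in sedentary mice. Its deposited locus holds 5 other genes, and 9.18% of its exon bases lie opposite exons of Plppr3. Prtn3 and Elane are neighbours on chromosome 10, with 3.07 kb between them on GRCm38, and Prss57 lies 83.5 kb before Prtn3. Relative to each other these genes kept nearly the same level: the FPKM of Elane over that of Mpo was 0.952 in running and 0.960 in sedentary mice, and that of Prtn3 over Elane 0.623 and 0.644 in running and sedentary mice.

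Ctsg, cathepsin G, had the lowest fold of the stage, -0.20, with 155 (126 to 183) FPKM in running and 177 (145 to 210) FPKM in sedentary mice and an unadjusted p of 0.0669 in the authors' deposited table. Ms4a3, a membrane protein of granulocyte-monocyte progenitors, had 88.2 FPKM in running and 99.8 FPKM in sedentary mice. Prss57, the serine protease NSP4, was the least expressed of all 36 genes, at 12.2 (7.68 to 16.7) FPKM in running and 13.4 (8.12 to 18.6) FPKM in sedentary mice. Its value is uncertain, because 40.7% of its exon bases lie opposite exons of Fstl3 and the use of strand in counting was not given in the labels. Gfi1, a transcriptional repressor required to form neutrophils, was the 1 gene above 0, at 16.7 (11.6 to 21.7) FPKM in running and 16.6 (11.6 to 21.6) FPKM in sedentary mice. The stage median was -0.14, and none of the 7 genes had an unadjusted p under 0.05.

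All 13 secondary granule genes had the lower value in running mice, with a median log2 fold of -0.17. Ngp, a granule protein related to cathelicidins, was the most expressed, at 4572 (3393 to 5752) FPKM in running and 5155 (3779 to 6531) FPKM in sedentary mice. Camp, the antimicrobial cathelicidin, had 2029 FPKM in running and 2231 FPKM in sedentary mice. Lcn2, which binds bacterial siderophores, stood at 1511 FPKM in running and 1688 FPKM in sedentary mice. Ltf, the iron-binding lactoferrin whose promoter carries the C/EBP motif shown above, was at 1315 (869 to 1761) FPKM in running and 1564 (998 to 2130) FPKM in sedentary mice, a fold of -0.25. Camp, Ngp and Ltf lie in this order on chromosome 9, with gaps of 570 kb and 596 kb.

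Chil3, a chitinase-like secreted protein, differed least among the secondary granule genes, with 1049 FPKM in running and 1086 FPKM in sedentary mice, a fold of -0.05. It shares 29.4% of its 50-base words with transcripts of other genes, most with Chil4, so reads of these genes could be mixed. Fcnb, the lectin ficolin B, had 149 (120 to 178) FPKM in running and 173 (140 to 207) FPKM in sedentary mice, and an unadjusted p of 0.0494 with q = 0.883 in the authors' deposited table. Cebpe, the C/EBP factor needed for secondary granules, stood at 61.6 FPKM in running and 66.4 FPKM in sedentary mice.

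Cd177, a surface protein also stored in secondary granules, had the lowest fold of the stage, -0.28. It stood at 145 (117 to 172) FPKM in running and 176 (142 to 210) FPKM in sedentary mice, with an unadjusted p of 0.00790 and q = 0.358 in the authors' deposited table. Ly6g, the surface antigen by which mouse neutrophils are recognised, had 67.6 (53.8 to 81.3) FPKM in running and 78.4 (62.9 to 94.0) FPKM in sedentary mice, a fold of -0.21. For Ly6g the p in the authors' deposited table was 0.0642. Neither gene was called. Cd177 shares 5.76% of its 50-base words with other genes, most with the gene model Gm4763.

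The oxidase that makes superoxide is built from membrane and cytosolic subunits, and its 4 genes in the set all had lower values in running mice. Cybb, the large membrane subunit, was at 125 (98.9 to 151) FPKM in running and 146 (113 to 180) FPKM in sedentary mice, a fold of -0.23 with an unadjusted p of 0.0365 and q = 0.788 in the authors' deposited table. Ncf1 and Ncf4, cytosolic subunits, had folds of -0.17 and -0.12. Ncf1 stood at 188 FPKM in running and 211 FPKM in sedentary mice, and 11.1% of its exon bases lie opposite exons of Gtf2ird2. Ncf4 was at 103 FPKM in running and 111 FPKM in sedentary mice. Cyba, the small membrane subunit, has intervals of 0 to 656 FPKM around 240 FPKM in running and of 0 to 729 FPKM around 264 FPKM in sedentary mice. Its deposited locus spans 4435 kb and holds 209 other genes, and its interval is too wide to show a difference of the size seen in the other genes.

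Tertiary granule genes had the lower value in running mice in 9 of 9 cases, with a median log2 fold of -0.20. Mmp9, the gelatinase that names these granules, differed least, at 427 (330 to 524) FPKM in running and 439 (340 to 538) FPKM in sedentary mice. Its fold of -0.04 turned to 0.0030 when the groups were scaled to the same total. Mmp8, neutrophil collagenase, had 191 FPKM in running and 206 FPKM in sedentary mice. Mmp25, a protease anchored in the membrane, had 13.9 FPKM in running and 15.9 FPKM in sedentary mice, a fold of -0.20. Of these 3 proteases none had an unadjusted p under 0.05 in the authors' deposited table.

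Wfdc21, a small secreted protein of the whey acidic protein family, was further apart, at 458 (371 to 545) FPKM in running and 565 (459 to 670) FPKM in sedentary mice. Its log2 fold was -0.30, with an unadjusted p of 0.00570 and q = 0.300 in the authors' deposited table. Padi4, the enzyme that citrullinates histones when neutrophils cast out chromatin, stood at 35.2 (26.8 to 43.6) FPKM in running and 44.8 (34.2 to 55.3) FPKM in sedentary mice. Its fold was -0.35, the second lowest of all 36 genes, with p = 0.00985 and q = 0.403 in the authors' deposited table. Ifitm6, an interferon-induced-type membrane protein of myeloid cells, had 394 (321 to 466) FPKM in running and 472 (386 to 558) FPKM in sedentary mice, with p = 0.0121 and q = 0.464 in the authors' deposited table.

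The remaining tertiary granule genes lay nearer to the middle. Anxa1, the lipid-binding annexin that restrains neutrophil migration, was at 411 FPKM in running and 479 FPKM in sedentary mice, a fold of -0.22. Anxa3, another annexin, had 68.5 FPKM in running and 77.2 FPKM in sedentary mice. Pglyrp1, which binds bacterial peptidoglycan, had 393 FPKM in running and 438 FPKM in sedentary mice. None of these 3 had an unadjusted p under 0.05.

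Genes of the mature neutrophil had a median log2 fold of -0.25, and 7 of 7 were below 0. S100a9 and S100a8, the subunits of the calcium-binding protein calprotectin, ranked first and second by level in each group among the genes with an estimate. S100a9 stood at 17115 (12664 to 21565) FPKM in running and 20406 (14797 to 26015) FPKM in sedentary mice. S100a8 stood at 16793 (12547 to 21039) FPKM in running and 20105 (14853 to 25357) FPKM in sedentary mice. Their folds were -0.25 and -0.26, with unadjusted p of 0.105 for S100a9 and 0.0832 for S100a8 in the authors' deposited table. The FPKM of S100a8 over that of S100a9 was 0.981 in running and 0.985 in sedentary mice, so their proportion hardly differed. The genes lie 22.6 kb apart on chromosome 3.

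Csf3r, the receptor of granulocyte colony-stimulating factor, had 69.7 (55.2 to 84.1) FPKM in running and 86.4 (68.4 to 104) FPKM in sedentary mice. Its fold was -0.31, with p = 0.0107 and q = 0.427 in the authors' deposited table, and 11.5% of its 50-base words occur in other genes. Fpr1 and Fpr2 are receptors for formylated bacterial peptides and are neighbours on chromosome 17. Fpr1 had 27.1 FPKM in running and 32.0 FPKM in sedentary mice, and Fpr2 had 83.4 FPKM in running and 95.8 FPKM in sedentary mice. Fpr2 shares 37.2% of its 50-base words with other genes, so its level is uncertain. Retnlg, a secreted resistin-like protein, differed least of the stage, at 1379 (1125 to 1634) FPKM in running and 1444 (1174 to 1713) FPKM in sedentary mice, a fold of -0.07.

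Stfa2l1, a member of the stefin A family of cysteine protease inhibitors, had the lowest fold of the 36 genes. It stood at 34.0 (22.1 to 45.9) FPKM in running and 52.0 (36.4 to 67.6) FPKM in sedentary mice, which is 34.6% lower, with a log2 fold of -0.61, p = 0.00210 and q = 0.145 in the authors' deposited table. With its 419-base transcript, about 278 fragments in running and 397 in sedentary mice lie behind these values, the fewest of the 36 genes. It shares 24.6% of its 50-base words with other genes, most with Stfa2, so fragments may be split between copies. Other stefin A genes were expressed at lower levels. Stfa1 had 3.36 FPKM in running and 3.20 FPKM in sedentary mice, a log2 fold of 0.07. Stfa2 had 0.619 FPKM in running and 1.22 FPKM in sedentary mice, and Stfa3 had 3.21 FPKM in running and 5.28 FPKM in sedentary mice, both with log2 folds below 0. None of these 3 was called.

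**Figure D2:**
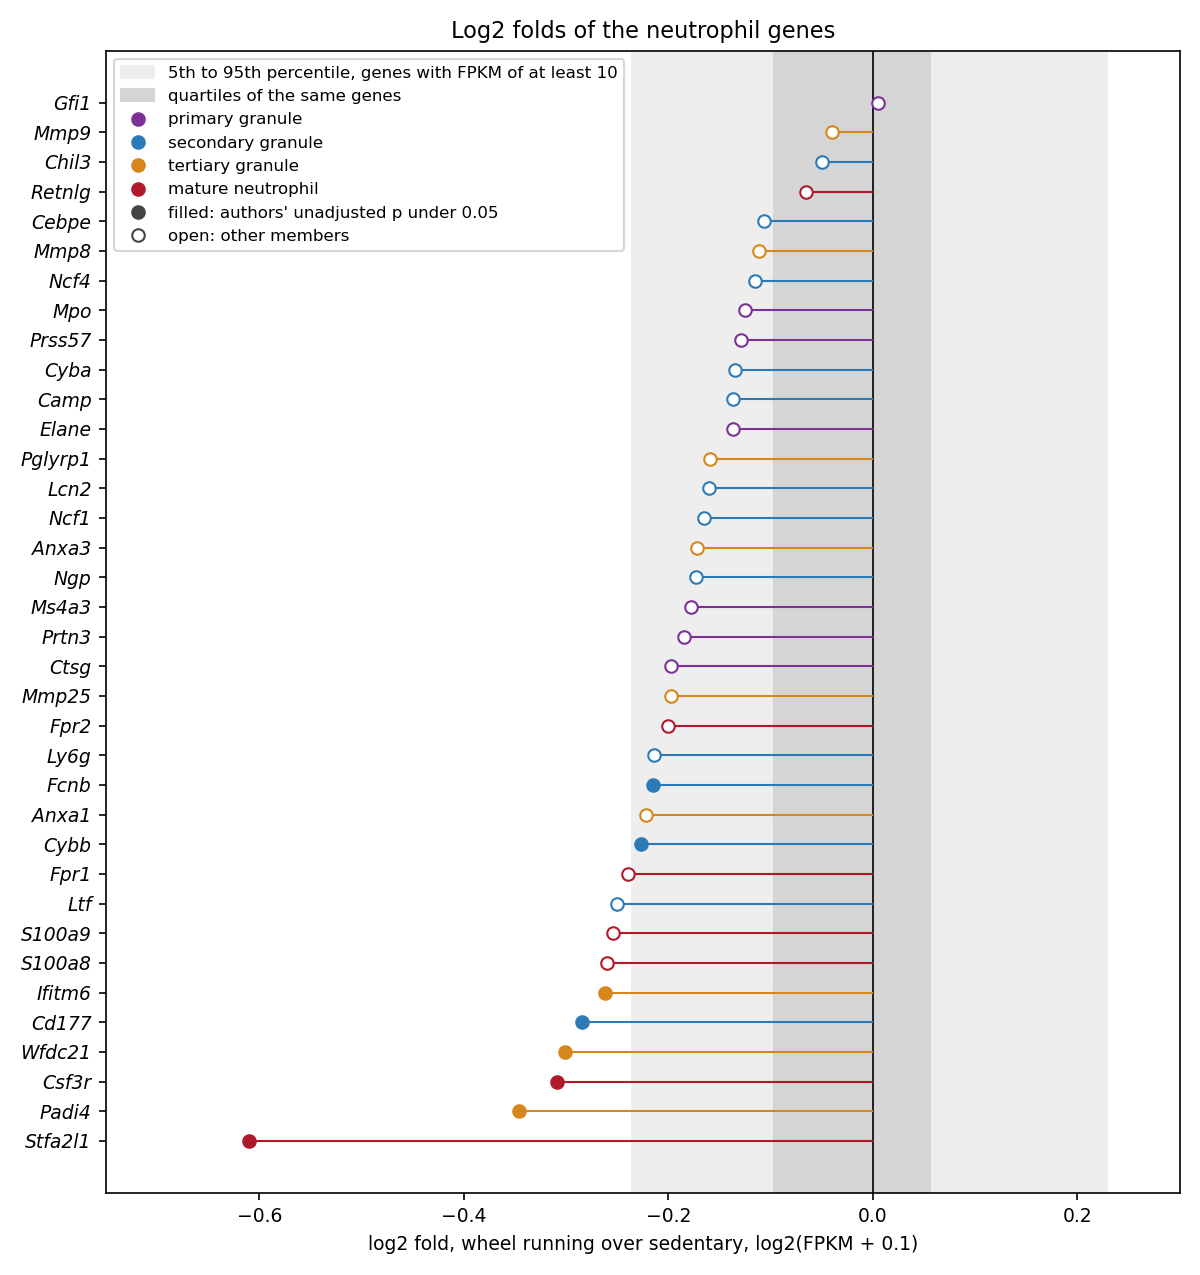
Log2 fold of wheel running over sedentary for each of the 36 genes, ranked and coloured by stage; filled points have an unadjusted p under 0.05 in the authors' deposited table, and grey bands show the quartiles and the 5th to 95th percentile of the 7650 tested genes with at least 10 FPKM in both groups. Folds run from 0.00 for Gfi1 to -0.61 for Stfa2l1, and 8 points are filled.

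By stage the median log2 folds were -0.14 in primary granule, -0.17 in secondary granule, -0.20 in tertiary granule and -0.25 in mature neutrophil genes. The ranges overlapped widely: -0.20 to 0.00 for primary, -0.28 to -0.05 for secondary, -0.35 to -0.04 for tertiary and -0.61 to -0.07 for mature genes. The number of genes with an unadjusted p under 0.05 in the authors' deposited table was 0 of 7, 3 of 13, 3 of 9 and 2 of 7 in the same order. Of all tested genes with at least 10 FPKM in both groups, 2.17% had such a p with the lower value in running mice. The 3 tertiary genes were Padi4, Ifitm6 and Wfdc21, whose log2 folds of -0.35, -0.26 and -0.30 were the lowest of the stage. Their placing as tertiary granule genes is loose. The other tertiary folds were -0.22, -0.20, -0.17, -0.16, -0.11 and -0.04. The middle ones, -0.17 and -0.16, lie at about the secondary median of -0.17. The difference between stages was not tested, since the values of all stages come from the same libraries. Summed over each stage, the running value was 0.903 times the sedentary value for primary, 0.892 times for secondary, 0.873 times for tertiary and 0.841 times for mature genes. The summed mature genes over the summed primary genes came to 17.7 in running and 19.0 in sedentary mice. S100a9 and S100a8 alone gave 17115 and 16793 of the 35501 FPKM summed over mature genes in running mice. In sedentary mice they gave 20406 and 20105 of 42221 FPKM. The mature sum and its ratio to the primary sum thus follow these 2 genes, and neither was computed without them. Retnlg, the mature gene next in level, had a fold of -0.07. In bulk RNA, fewer cells of a type and less RNA per cell cannot be told apart.

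S100a8 and S100a9 made up 65.9% of the summed FPKM of the set in running and 67.4% in sedentary mice. The set as a whole held 8.94% of the total FPKM in running and 10.1% in sedentary mice. Without these 2 genes the shares were 3.05% in running and 3.31% in sedentary mice, and 33 of the remaining 34 genes were below 0. Of the 36 genes, 22 stand alone in their deposited locus and share under 1% of exon bases and of 50-base words with other genes; all 22 were below 0.

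**Figure D3:**
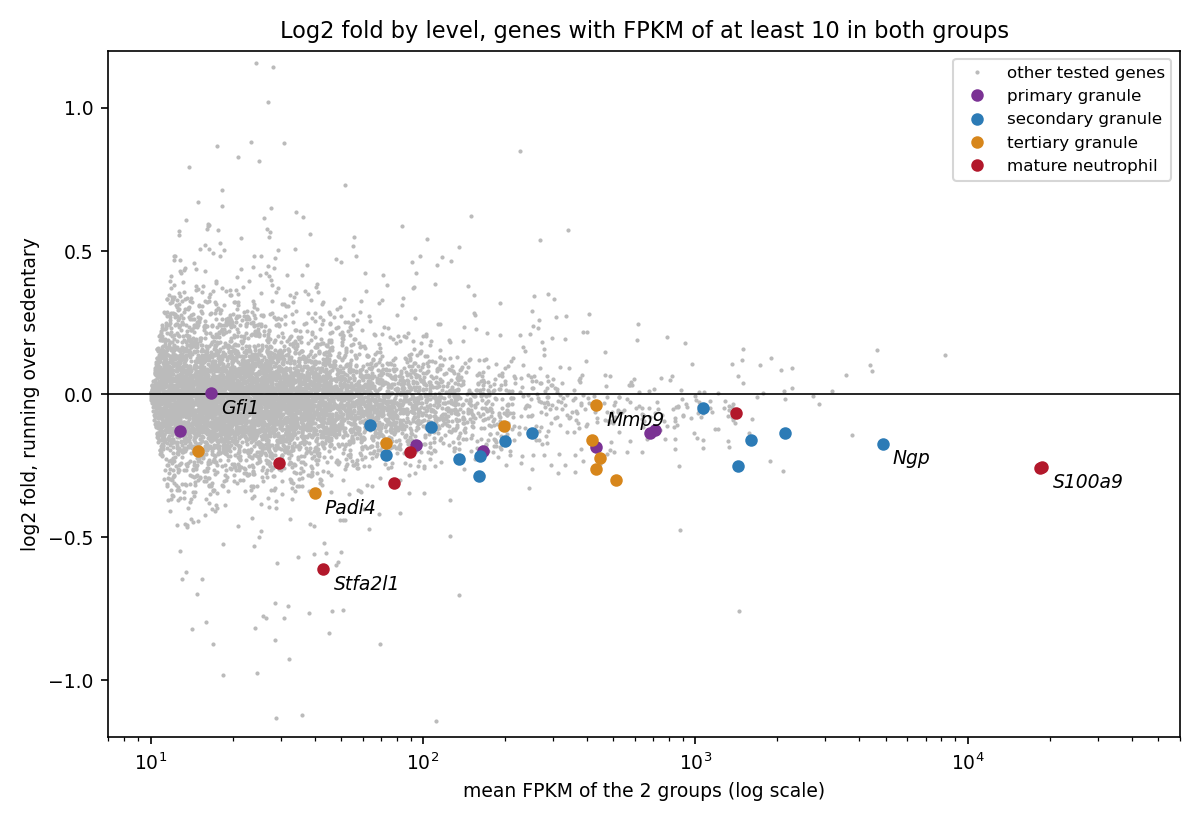
Log2 fold against mean FPKM (log axis) for the 7650 tested genes with at least 10 FPKM in both groups, in grey, with the 36 neutrophil genes coloured by stage; 25 genes lie beyond the axis limit of 1.2. The neutrophil genes lie below 0 from the least expressed, Prss57, up to the S100a8 and S100a9 points at the far right, apart from Gfi1.

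Further genes of the neutrophil programme came from 5 lists. For scale, 51.8% of all tested genes, and 58.4% of those with at least 10 FPKM in both groups, were below 0. Called in either direction were 0.941% of all tested genes. Among 21 expressed genes of other granule contents and their processing, 17 were below 0 and none was called, with a median log2 fold of -0.17, close to that of the 36 genes. Lyz2, lysozyme of myeloid cells, stood at 1904 (1492 to 2315) FPKM in running and 2293 (1779 to 2806) FPKM in sedentary mice, a fold of -0.27 with p = 0.0371 and q = 0.794 in the authors' deposited table. Itgam, the CD11b integrin chain, had 92.2 FPKM in running and 110 FPKM in sedentary mice, and Slpi, a protease inhibitor, 92.1 FPKM in running and 110 FPKM in sedentary mice. Stfa2 and Stfa3 had the lowest folds of the list, -0.88 and -0.70, with unadjusted p of 0.229 and 0.101 in the authors' deposited table. Both were low in level, and the intervals of Stfa2 reached down to 0 in each group. At the other end were the lysosomal genes Ctsd and Hexa, which many cell types use. Ctsd had 353 FPKM in running and 309 FPKM in sedentary mice, and Hexa 132 FPKM in running and 125 FPKM in sedentary mice.

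The remaining oxidase genes gave 4 of 5 below 0, none called, and a median of -0.02. Rac2, the GTPase of blood cells that joins the oxidase complex, had 121 FPKM in running and 139 FPKM in sedentary mice. Rac1, its widely expressed relative, had 209.6 FPKM in running and 211 FPKM in sedentary mice, and the proton channel gene Hvcn1 63.9 FPKM in running and 62.4 FPKM in sedentary mice.

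Regulators of granulocyte formation showed no common direction: 10 of 17 expressed genes were below 0, none was called and the median was -0.02. Cebpb, the factor of emergency granulopoiesis, had 54.8 (38.4 to 71.1) FPKM in running and 44.4 (27.4 to 61.3) FPKM in sedentary mice, and the clock gene Per3 9.67 FPKM in running and 8.25 FPKM in sedentary mice. The lowest folds were those of the receptor genes Csf2rb, with 32.2 FPKM in running and 39.5 FPKM in sedentary mice, and Csf2ra, with 101 FPKM in running and 121 FPKM in sedentary mice. Csf3, the ligand of Csf3r, was listed at 0 in each group.

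Among 21 expressed genes of chemotaxis and release, 18 were below 0, with a median of -0.11, and Il1b was the 1 call. Il1b, the inflammatory cytokine interleukin-1 beta, fell to 9.48 (6.58 to 12.4) FPKM in running mice, against 15.8 (11.1 to 20.6) FPKM in sedentary mice, a log2 fold of -0.73 with q = 0.00718 in the authors' deposited table, though the authors' intervals overlapped. Cells other than neutrophils also express it. Cxcr2, the receptor that draws neutrophils out of the marrow, had 37.7 (30.7 to 44.7) FPKM in running and 46.3 (37.8 to 54.9) FPKM in sedentary mice, with p = 0.00580 and q = 0.300 in the authors' deposited table. Cxcr4, which retains them there, stood at 156 FPKM in running and 159 FPKM in sedentary mice. Its stromal ligand Cxcl12 was at 973 FPKM in running and 860 FPKM in sedentary mice, and Vcam1, an adhesion molecule of stroma and macrophages, at 213 FPKM in running and 171 FPKM in sedentary mice. For Vcam1 the authors' deposited table gives p = 0.00430 and q = 0.247, and neither gene was called.

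Relatives of Ly6g and of the S100 genes gave 7 of 9 below 0, none called, with a median of -0.10. S100a6 had 283 FPKM in running and 343 FPKM in sedentary mice, with p = 0.0189 and q = 0.605 in the authors' deposited table, and Ly6c2, an antigen of monocytes and immature granulocytes, 466 FPKM in running and 536 FPKM in sedentary mice. Ly6c1, which endothelial cells also express, had 57.8 FPKM in running and 42.0 FPKM in sedentary mice, with p = 0.00590 and q = 0.303 in the authors' deposited table. S100a1 was at 53.4 FPKM in running and 52.4 FPKM in sedentary mice.

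**Figure D4:**
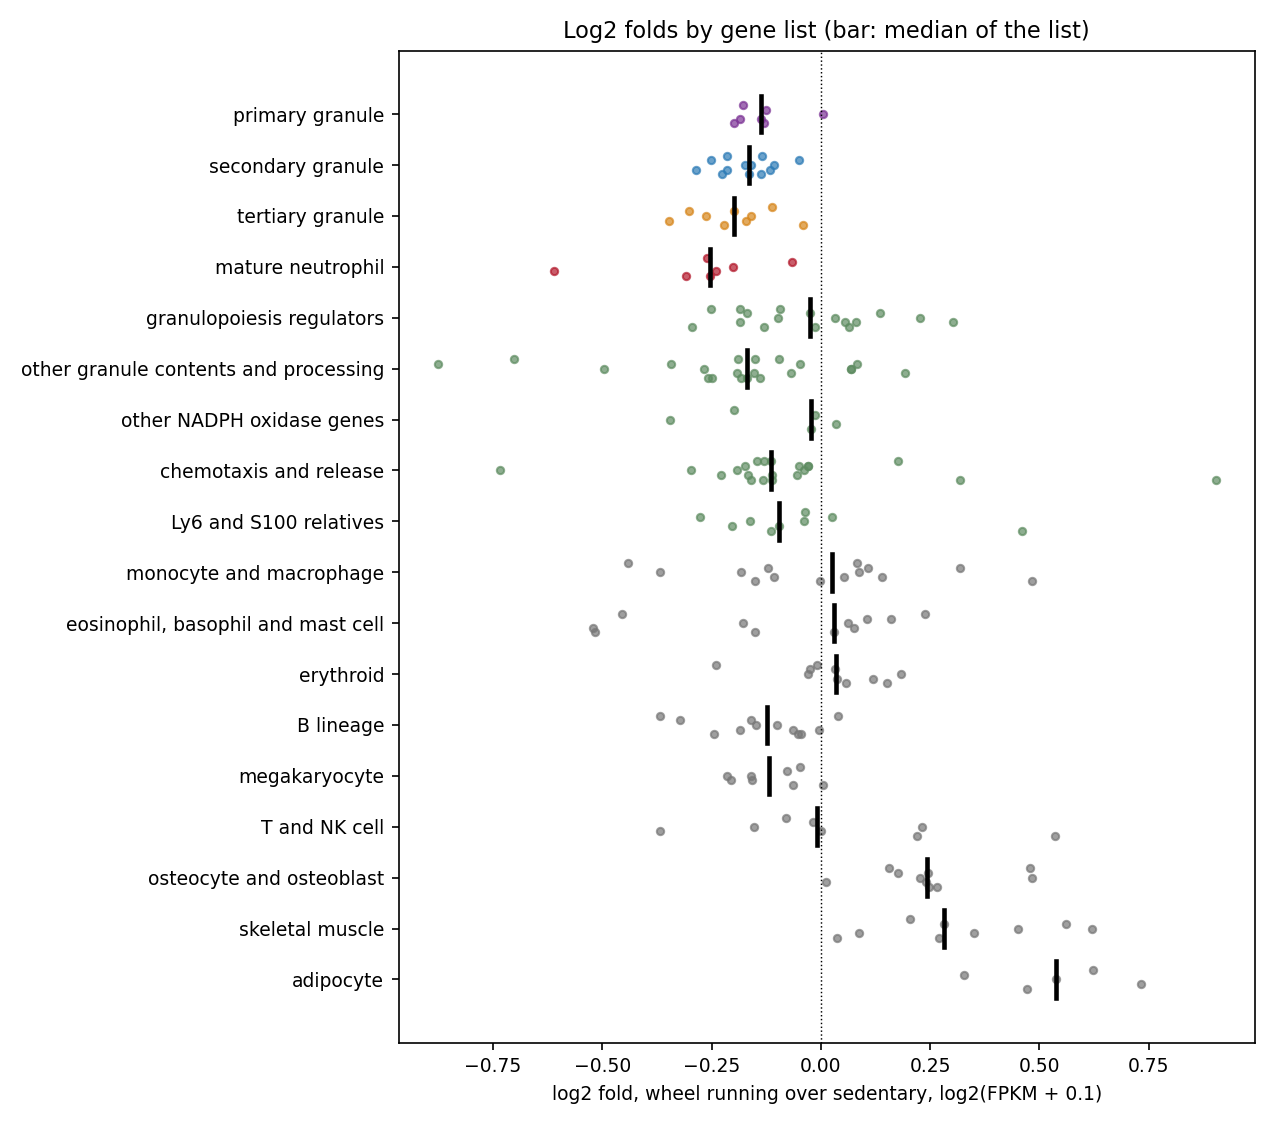
Log2 fold of each expressed gene (points) and the median of each list (bars) for the 4 neutrophil stages, the 5 lists of related genes (green) and 9 lists of markers of other cells and tissues (grey). The 4 stage medians lie between -0.25 and -0.14, and the medians of bone, muscle and fat markers between 0.24 and 0.54.

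Markers of other cells in the same libraries differed in direction between lists, and a call here is a q under 0.05 in the authors' deposited table. Beside these lists stand 0.941% of all tested genes called in either direction. A fold below 0 was seen in 51.8% of all tested genes and in 58.4% of those with at least 10 FPKM in both groups. Monocyte and macrophage markers were below 0 in 7 of 14 cases, with a median of 0.03. Their sums were 1072 FPKM in running and 1037 FPKM in sedentary mice. Ccr2 (-0.44) was called lower and Cd163 (0.48) higher, and the list was split. Also below 0 were Cx3cr1 (-0.37), Ms4a6c (-0.18), Ly86 (-0.15), F13a1 (-0.12), Mpeg1 (-0.11) and Adgre1 (-0.002). Vcam1 (0.32), Csf1r (0.14), C1qc (0.11), C1qb (0.09), Klf4 (0.08) and C1qa (0.05) were above 0. Markers of eosinophils, basophils and mast cells had 5 of 11 below 0 and a median of 0.03, with sums of 1512 FPKM in running and 1436 FPKM in sedentary mice and 1 call, the basophil protease gene Mcpt8, lower. Here too the median hides a split. Below 0 were Mcpt8 (-0.52), Cpa3 (-0.52), Fcer1a (-0.45), Ms4a2 and Gata2. Above 0 were Prg3 (0.24), Epx (0.16), Prg2, Ear1, Ear2 and Siglecf. Erythroid markers had 4 of 10 below 0 and a median of 0.04, and summed to 9752 FPKM in running and 9259 FPKM in sedentary mice; the log2 ratio of these sums was 0.07, and 0.0015 without the most expressed gene. B lineage markers had 11 of 12 below 0 (median -0.12, sums 915 FPKM in running and 980 FPKM in sedentary mice), and megakaryocyte markers 7 of 8 (median -0.12, sums 1573 FPKM in running and 1710 FPKM in sedentary mice). T and NK cell markers had 4 of 8 below 0, a median of -0.01 and sums of 97.8 FPKM in running and 104 FPKM in sedentary mice.

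Outside the blood lineages none of the marker genes tested was below 0. The medians were 0.24 for 10 osteocyte and osteoblast genes, 0.28 for 9 skeletal muscle genes and 0.54 for 5 adipocyte genes. Called higher were Sost and Mepe of bone, Myh1, Myh2 and Tcap of muscle, and Adipoq, Fabp4 and Cfd of fat. Their sums were 6006 FPKM in running and 5599 FPKM in sedentary mice for bone, 1782 FPKM in running and 1483 FPKM in sedentary mice for muscle, and 486 FPKM in running and 335 FPKM in sedentary mice for fat. No marker of these 9 lists with a row was at 0 in either group. FPKM is scaled to the depth of each library, so a larger part from 1 tissue can lower the others. The deposited totals were not equal, at 575291 FPKM in running and 592620 FPKM in sedentary mice. The part of bone, muscle and fat RNA in the lower neutrophil values was not tested.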

How the data were processed

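Directional libraries were made from the polyadenylated RNA of 6 femoral bone samples, per the labels' protocols; the design text counts 3 mice per group. Cufflinks 2.2.1, SAMtools 1.10, HISAT2 2.2.1 and Trimmomatic 0.39 appear with build GRCm38 in the submitters' processing notes, which give them no roles. Strand use in counting was not given in the sources used here. The FPKM deposited by the authors are pooled over the libraries of a group and come with an interval of unstated level. Each gene's p-value, q-value, score of the test and log2 fold were deposited by the authors in columns that are those of Cuffdiff, per the file headers. Their q equals a Benjamini-Hochberg adjustment over the tested genes to within 5.21e-07. No test between mice could be made, because 0 columns hold single libraries. A gene was called at q under 0.05. Log2 folds used a pseudocount of 0.1; no filter on low values removed any of the 36 genes, and list counts take genes with at least 1 FPKM in a group. The 5 genes without an estimate (status HIDATA) were left out of totals.

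The 36 genes, the stages and all lists were chosen with earlier results of these data known. Of each list of related genes, calls were named, or otherwise the 2 highest and 2 lowest folds, of which 1 gene is not reported here; Stfa1, Lyz2, Itgam, Slpi, Csf3, Cxcr2, Cxcr4, Cxcl12 and Vcam1 were named after their values were seen. In the lists 1 symbol had no row, and Vcam1 stands in 2 lists. Ensembl IDs linked the genes to positions and transcripts in GENCODE vM21 (GRCm38). Fragment counts used the longest transcript less 250 bases. Promoters come from RefSeq on GRCm38.p6. Python 3.11.15 with pandas 2.3.3, numpy 2.4.6 and matplotlib 3.10.9 was used, and the adjustment was tested on simulated data.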

Additional observations from a re-analysis of the deposited data

How the results depend on the processing

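No paired analysis was possible because the deposited columns are pooled over the mice of a group; leaving out single mice was not run for the same reason, so a single mouse behind a value could not be detected. The count of genes below 0, 35 of 36, was 34 when both groups were scaled to the same total (a shift of 0.04) and 35 with pseudocounts of 1 or 0.01, with the members left out of the total, with the median of all genes set to 0, or with the authors' deposited folds. Among the 22 genes alone in their locus, without overlap or shared sequence, an alternative chosen after seeing the data, 22 were below 0. Calls stayed at 0 with q under 0.1 or 0.01, with q recomputed over genes of at least 1 FPKM (lowest 0.138) and with the authors' intervals apart; an unadjusted p under 0.05 gave 8. The stage medians kept their sign in all 36 alternatives, between -0.18 and -0.09 for primary, -0.17 and -0.12 for secondary, -0.21 and -0.16 for tertiary and -0.25 and -0.21 for mature genes. Scaled to the same total, Mmp9 turned to 0.0030, the 1 reversal among 216 alternative folds. Several of the settings behind these counts could hardly change a sign. All 36 genes have at least 10 FPKM, so a filter at that level removes none and the pseudocount matters little. The authors' folds are nearly the same numbers, and setting the median of all genes to 0 shifts folds by only 0.0076. Without their most expressed gene, the summed log2 ratios of the chemotaxis list (0.04) and of the monocyte list (0.05) turned to -0.067 and -0.012, because Cxcl12 and Vcam1 were left out.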
